A study of Homo sapiens with 15 samples.

Results

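The genes described here are 34 human genes of the NRF2 antioxidant and detoxification programme: the transcription factor NFE2L2 (NRF2), its inhibitor KEAP1 and 32 genes widely used as NRF2 targets. They were taken by gene symbol from the 60649 human genes of a count table made from A549 xenograft tumours. A549 is an established human lung adenocarcinoma cell line known to carry a mutant KEAP1 and an active NRF2. For each tumour 5000000 A549 cells had been transplanted under the skin of a BALB/c nude mouse, an immunodeficient host that lacks a thymus and mature T cells but keeps macrophages and other innate immune cells. All 3 groups, of 5 tumours each, share this line, host and site and differ in restraint stress. In the stress group the mice were restrained, with 7 days given before transplantation. In the post-stress group they were restrained, with 12 days given after transplantation. In the no-stress group they were not restrained. Whether 7 and 12 count days of restraint or days up to its start is unclear from the labels, and the sources used here give neither the age nor the sex of the mice.

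NRF2 is a transcription factor that the adaptor KEAP1 normally holds in the cytoplasm and passes to a ubiquitin ligase for degradation. Oxidants and electrophiles that modify KEAP1, or mutations in it, let NRF2 enter the nucleus, pair with a small MAF protein and bind antioxidant response elements. The genes it switches on make glutathione, reduce thioredoxin, peroxides, quinones and carbonyls, regenerate NADPH, store iron and export conjugated compounds, and lung cancers with KEAP1 mutations run this programme at a high level.

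Each library held 16729091 to 19680449 counts, of which 12877165 to 15892705 fell on human genes. Mouse genes were read as a measure of host cells in the tumour, and reads assigned to the wrong species were not tested for. They took 18.6 to 24.6% of all counts in stress tumours, 12.4 to 23.0% in post-stress tumours and 15.6 to 30.2% in no-stress tumours. No-stress replicates 1 and 5 had the highest shares. Levels below are CPM, counts per 1000000 human counts, after scaling by the trimmed mean of M values (TMM), so that the mouse share does not enter the denominator. KRT8, KRT18 and KRT7, keratins of epithelial lines, were abundant in every library, and CDKN2A, which A549 has lost, reached at most 2.05 CPM. Of the 8 epithelial markers, 2 stayed under 1 CPM everywhere, KRT19 among them, and the 8 summed to 5456 to 6892 CPM in stress tumours, 5437 to 6169 CPM in post-stress tumours and 4530 to 6665 CPM in no-stress tumours. Of 25 human markers of leukocytes, stroma and endothelium, 15 stayed under 1 CPM in every library, with 3 at 0 throughout, AIF1 and ADIPOQ among them. The others exceeded 1 CPM in at least 1 library. The highest were COL1A1 at 40.1 to 198 CPM, DCN at 1.09 to 47.6 CPM and PECAM1 at 7.29 to 23.7 CPM. The list summed to 132 to 189 CPM in stress tumours, 91.9 to 233 CPM in post-stress tumours and 122 to 229 CPM in no-stress tumours. Mitochondrially encoded genes took 2.91 to 4.33% of human counts in stress tumours, 3.43 to 4.38% in post-stress tumours and 4.00 to 4.48% in no-stress tumours.

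All 34 genes were well detected, and none was removed by the filter on low counts that left 15435 human genes for testing. Per kilobase of annotated exon, the ferritin light chain FTL was the most abundant of 15308 human genes in no-stress tumours, at 7878 ± 967 CPM per kilobase (SD, n = 5). The aldo-keto reductase AKR1B10 ranked 11th at 2515 ± 487 CPM per kilobase, the ferritin heavy chain FTH1 ranked 26th at 1023 ± 217 and the aldehyde dehydrogenase ALDH3A1 ranked 31st at 901 ± 151. At the other end stood the heme oxygenase HMOX1 at 9.18 ± 1.16 CPM per kilobase, the sulfiredoxin SRXN1 at 10.7 ± 3.37 and the ubiquitin ligase TRIM16 at 14.2 ± 1.30. NFE2L2 and KEAP1 themselves were at 16.9 ± 1.44 and 25.7 ± 0.979 CPM per kilobase, near the lower end of the programme.

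**Figure D1:**
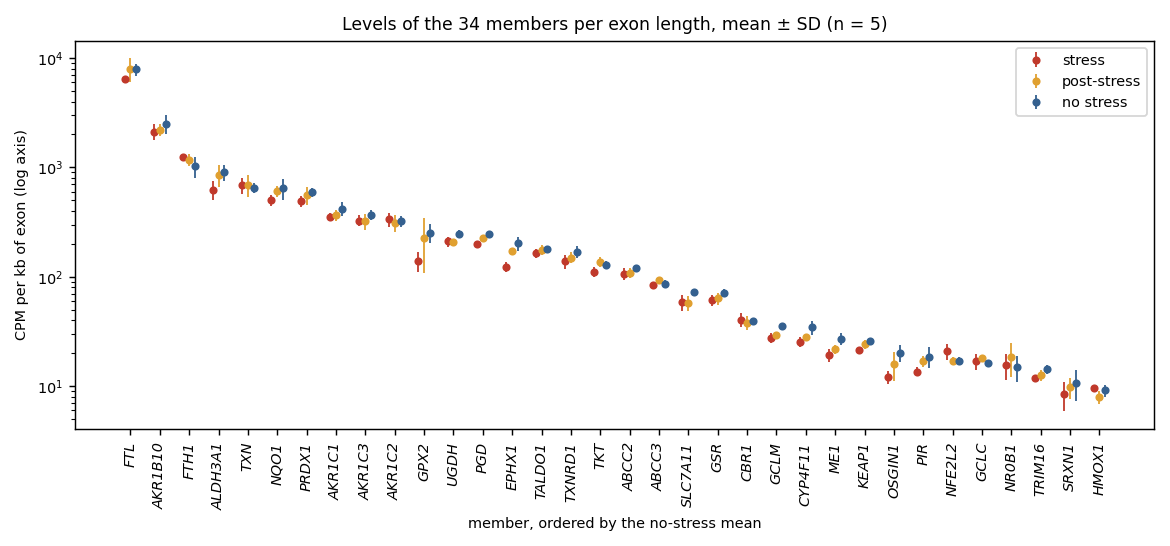
Level of each of the 34 genes per kilobase of exon (CPM per kilobase, log axis), as group means with SD over 5 tumours in stress, post-stress and no-stress tumours. FTL stands at the top and HMOX1 and SRXN1 at the bottom, and the distance between genes is far larger than that between groups.

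Together the 34 genes took 3.10, 3.34, 3.18, 3.26 and 3.04% of human counts in stress tumours, 3.38, 3.36, 3.99, 3.43 and 3.30% in post-stress tumours and 3.84, 3.61, 4.01, 4.13 and 3.46% in no-stress tumours. Every stress tumour lay below every no-stress tumour, and the post-stress tumours overlapped both groups. Stress and no-stress tumours overlapped when FTL and FTH1 were left out and when mouse counts entered the total. The means were 3.18 ± 0.119% in stress tumours, 3.49 ± 0.281% in post-stress tumours and 3.81 ± 0.274% in no-stress tumours (SD, n = 5 each), given as a description with no test. FTL, AKR1B10, AKR1C1, ALDH3A1 and FTH1 were the 5 most counted members and together took 1.73 ± 0.0693% of human counts in stress tumours, 1.94 ± 0.195% in post-stress tumours and 2.09 ± 0.168% in no-stress tumours (SD, n = 5 each).

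Antioxidant response elements share the core TGACNNNGC, where N is any base. This core was searched on both strands in the RefSeq promoter windows of GRCh38.p14, which run from 250 bases before to 50 bases after a start of a gene. A gene can have several windows, 3 for EPHX1 and 2 each for TXNRD1 and KEAP1. It was present for 16.1% of the 27305 genes with a window and for 10 of the 26 members that had one (38.5%). The matches upstream of the start of their own window are shown here because 7 of these 10 genes were among those that fell under stress. That start can differ from the outer end of the annotated gene, so some matches, such as that of EPHX1, lie inside the gene span given below. Each is written 5′ to 3′ on the strand of the gene, with the matched core in capitals and 10 bases on each side. A core that lies on the other strand reads GCNNNGTCA.
EPHX1, chr1:225825266-225825294 (+ strand): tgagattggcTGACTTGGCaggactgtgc
GCLM, chr1:93909446-93909474 (- strand): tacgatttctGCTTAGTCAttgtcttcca
KEAP1, chr19:10502807-10502835 (- strand): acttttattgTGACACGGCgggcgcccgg
KEAP1, chr19:10502784-10502812 (- strand): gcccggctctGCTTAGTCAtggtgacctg
ME1, chr6:83431170-83431198 (- strand): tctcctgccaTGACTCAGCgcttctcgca
PGD, chr1:10398853-10398881 (+ strand): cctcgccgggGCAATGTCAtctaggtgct
CYP4F11, chr19:15935005-15935033 (- strand): ctgtgcccatGCTGTGTCAccctgagctg
GPX2, chr14:64942849-64942877 (- strand): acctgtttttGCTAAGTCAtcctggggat
TXNRD1, chr12:104286920-104286948 (+ strand): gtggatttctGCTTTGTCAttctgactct
TXNRD1, chr12:104215670-104215698 (+ strand): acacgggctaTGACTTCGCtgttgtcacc
CBR1, chr21:36069855-36069883 (+ strand): tgcgggttctGCAAAGTCAggctagctgg

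In PIR the match lay after the start, and it is not printed, like further matches at or after the start in ME1 and TXNRD1. The core was not found in the windows of the other 16 members that had one, NQO1, GCLC and OSGIN1 among them. This says only that these letters are absent from those windows, since elements can lie farther away. Over all tested genes with a window, 6.02% of the 2143 with the core and 5.85% of the 8870 without it fell under stress, while among the members it was 7 of 10 with the core and 1 of 16 without. This split was looked at after the values were known and is a description only.

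Stress tumours were first set against no-stress tumours, which asks how the programme differed in tumours of mice restrained before transplantation. Of the 34 genes 9 fell and none rose (edgeR quasi-likelihood test over all 15435 genes, Benjamini-Hochberg adjusted p under 0.05), or 26.5% lower, against 5.22% of all tested genes that were lower and 5.23% that were higher. The 34 genes were listed with earlier results of these data known, so the share is a description of this list. Among the 9454 genes with a mean of at least 10 CPM, 7.49% were lower. That floor leaves out scarce genes but does not match the abundance of the members. The 9 were KEAP1, the NADPH enzymes ME1 and PGD, the glutathione synthesis subunit GCLM, the aldehyde dehydrogenase ALDH3A1, the fatty acid hydroxylase CYP4F11, the epoxide hydrolase EPHX1, the growth inhibitor OSGIN1 and the nuclear protein PIR. Their levels in stress tumours were 0.592 (OSGIN1) to 0.837 (KEAP1) of those in no-stress tumours. The median log2 fold change of the 34 was -0.25, against -0.01 for all tested genes, and 26 of the 34 (76.5%) were below 0, against 51.1% of all tested genes. In 8 of the 34 (23.5%) every stress tumour was below every no-stress tumour, against 4.7% of all tested genes, and 20 of the 34 had an unadjusted p under 0.05 (58.8%), against 26.1% of all tested genes. In bulk tumours fewer expressing cells and less RNA per cell cannot be told apart.

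**Figure D2:**
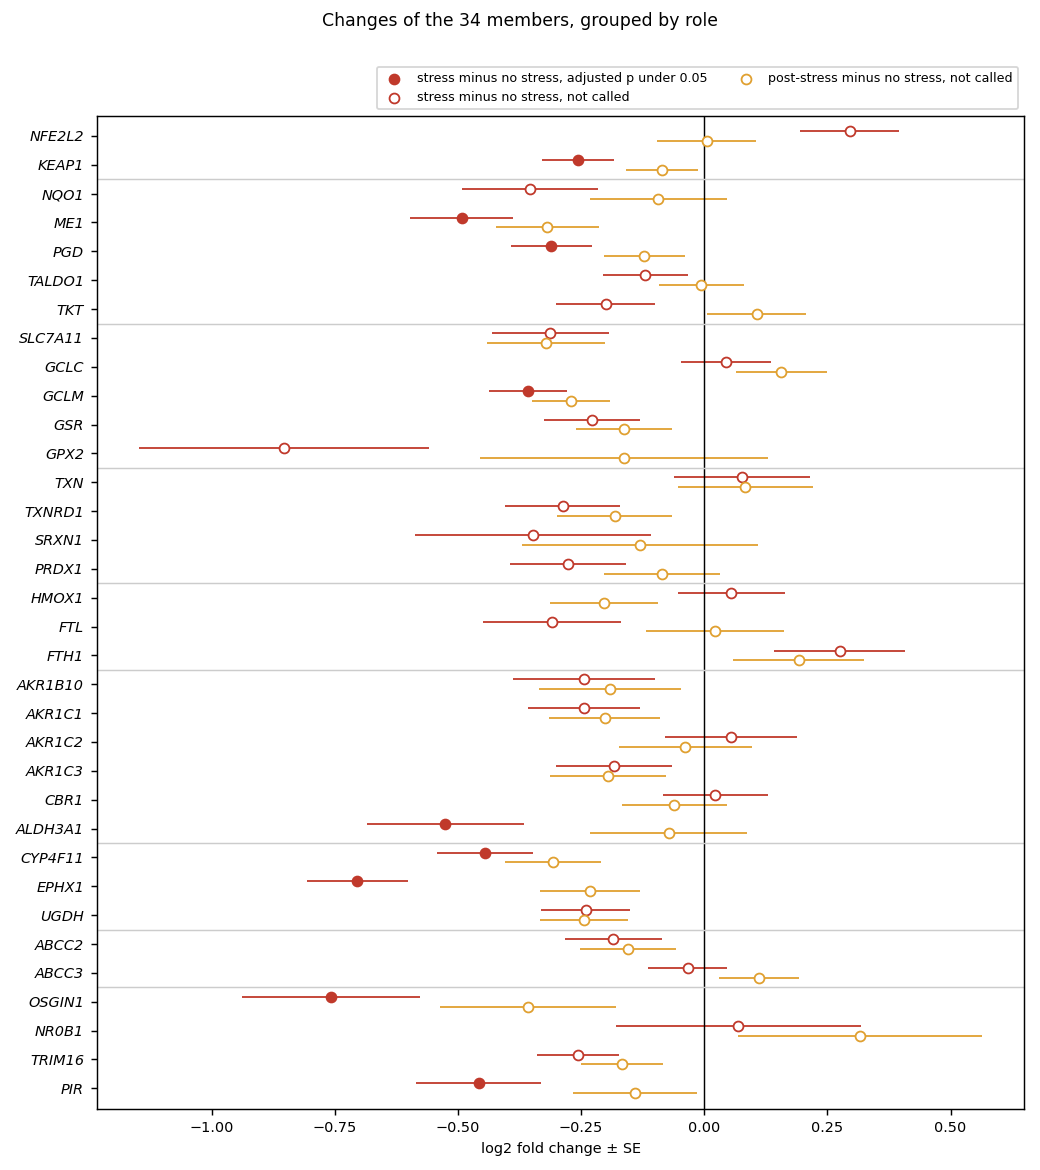
Log2 fold change of the 34 genes, ordered by role, with stress (red) and post-stress tumours (yellow) each set against no-stress tumours, bars of 1 SE and filled points for genes with an adjusted p under 0.05. The 9 filled points are all red and all lie left of 0.

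The count of 9 leaned on some libraries. Leaving out 1 library at a time gave 4 to 10 members called, with 4 without stress replicate 1 and 5 without stress replicate 3, stress replicate 5, no-stress replicate 1 or no-stress replicate 3. Without no-stress replicates 1 and 5, which had the most mouse counts, it was 5, and with the mouse share of counts as a covariate it was 9. DESeq2's Wald test kept the 9 and added others, among them NFE2L2 as higher. The share of mitochondrially encoded counts was lower in most stress tumours, as given above, and its part in the result was not tested. The calls of EPHX1, ME1, GCLM and CYP4F11 held in every one of these fits and in every other alternative computed.

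Of the regulators, NFE2L2 (chr2:177227595-177392697 in GRCh38, minus strand), the gene for NRF2, stood at 128, 155, 124, 100.2 and 113 CPM in stress tumours, 112, 98.2, 105, 91.4 and 101 CPM in post-stress tumours and 95.2, 98.3, 103, 115 and 94.1 CPM in no-stress tumours. The 3 highest tumours were stress replicates 1, 2 and 3, and the groups overlapped. Its level was not called different (log2 fold change 0.29, SE 0.10, adjusted p = 0.0661), but it passed the threshold without stress replicate 4 or no-stress replicate 4 (adjusted p 0.0183 and 0.0441) and in DESeq2's Wald test (adjusted p = 0.0459). KEAP1 (chr19:10486120-10503741, minus strand), the adaptor that targets NRF2 for degradation and is itself an NRF2 target, stood at 82.6, 78.1, 77.6, 89.8 and 76.7 CPM in stress tumours, 102, 78.3, 93.6, 90.3 and 92.0 CPM in post-stress tumours and 100.2, 96.3, 100.4, 91.8 and 94.9 CPM in no-stress tumours. All 5 stress tumours were below the lowest no-stress tumour, and post-stress replicate 2 was as low as the stress tumours. KEAP1 fell to 0.837 of its no-stress level (log2 fold change -0.26, SE 0.07, adjusted p = 0.0330). That call ended without stress replicate 1, 2, 3 or 5 or no-stress replicate 1, 2 or 3 (adjusted p 0.0560 to 0.0964), with no filter on low counts (0.102) and without no-stress replicates 1 and 5 (0.129).

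**Figure D3:**
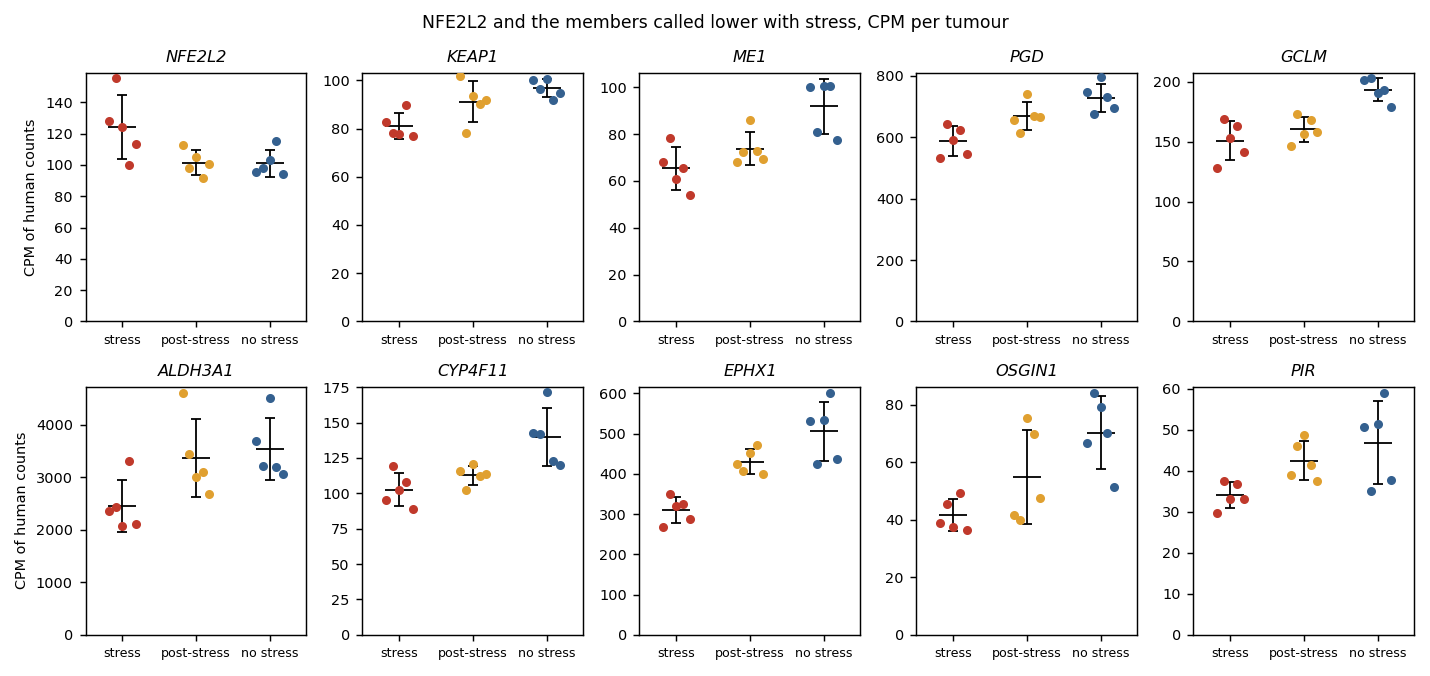
CPM in every tumour for NFE2L2 and the 9 genes that fell under stress, with stress, post-stress and no-stress tumours from left to right; bars are the mean and SD of 5 tumours. In KEAP1, PGD, GCLM, CYP4F11, EPHX1 and OSGIN1 the stress points all lie below the no-stress points.

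Quinone reduction and NADPH supply held 5 members, of which ME1 and PGD fell. ME1, the cytosolic malic enzyme that makes NADPH from malate, stood at 68.1, 78.4, 60.7, 65.6 and 53.9 CPM in stress tumours, 68.1, 72.2, 85.8, 72.9 and 69.4 CPM in post-stress tumours and 99.9, 80.8, 101, 100.3 and 77.6 CPM in no-stress tumours. Stress replicate 2 alone reached the no-stress range, and 4 of the 5 post-stress tumours were below it. ME1 fell to 0.711 of its no-stress level (log2 fold change -0.49, SE 0.10, adjusted p = 0.00850). PGD, the phosphogluconate dehydrogenase that yields NADPH in the pentose phosphate pathway, stood at 532, 644, 591, 624 and 545 CPM in stress tumours, 655, 614, 741, 669 and 667 CPM in post-stress tumours and 746, 676, 795, 729 and 694 CPM in no-stress tumours. All 5 stress tumours were below the lowest no-stress tumour, and PGD fell to 0.807 of its no-stress level (log2 fold change -0.31, SE 0.08, adjusted p = 0.0246). The call of PGD ended without stress replicate 1, 3 or 5 or no-stress replicate 1 or 3 (adjusted p 0.0508 to 0.0767) and without no-stress replicates 1 and 5 (0.0919).

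NQO1, the quinone reductase most often read as a marker of NRF2 activity, stood at 1502, 1724, 1732, 1864 and 1386 CPM in stress tumours, 1956, 1976, 2339, 1858 and 1706 CPM in post-stress tumours and 2089.7, 1733, 2285, 2777 and 1604 CPM in no-stress tumours. No-stress replicate 4 was the highest and stress replicate 5 the lowest, and the groups overlapped because no-stress replicates 2 and 5 were as low as the stress tumours. NQO1 was not called (log2 fold change -0.35, SE 0.14, adjusted p = 0.111). The pentose phosphate enzymes of the nonoxidative branch were not called either, with log2 fold changes of -0.12 for the transaldolase TALDO1 and -0.20 for the transketolase TKT.

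Glutathione synthesis and use held 5 members, of which GCLM fell. GCLM, the modifier subunit of the ligase that makes the rate-limiting step of glutathione synthesis, stood at 128, 169, 153, 163 and 142 CPM in stress tumours, 147, 173, 156, 168 and 158 CPM in post-stress tumours and 201, 203, 190.1, 193 and 179 CPM in no-stress tumours. All stress and all post-stress tumours were below the lowest no-stress tumour. GCLM fell to 0.781 of its no-stress level under stress (log2 fold change -0.36, SE 0.08, adjusted p = 0.0106). The catalytic subunit of the same ligase, GCLC, was not called and had a log2 fold change of 0.04 (SE 0.09, adjusted p = 0.809). SLC7A11, the cystine importer that feeds the pathway, stood at 491, 645, 641, 600.4 and 431 CPM in stress tumours, 499.8, 542, 477, 580.0 and 693 CPM in post-stress tumours and 711, 703, 682, 747 and 644 CPM in no-stress tumours. Only stress replicate 2 was above the lowest no-stress tumour among the stress tumours, and SLC7A11 was not called (log2 fold change -0.31, SE 0.12, adjusted p = 0.102).

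GPX2, a glutathione peroxidase of epithelia, and TRIM16 were singled out after their values were seen, because their groups did not overlap and yet they were not called. GPX2 stood at 148, 239, 223, 182 and 252 CPM in stress tumours, 206, 183, 596, 432 and 268 CPM in post-stress tumours and 417, 333, 453, 415 and 269 CPM in no-stress tumours. Post-stress replicates 3 and 4 were high while the other 3 post-stress tumours were below the lowest no-stress tumour. GPX2 had the lowest log2 fold change of the 34 under stress (log2 fold change -0.85, SE 0.29, adjusted p = 0.0811), and it passed the threshold without post-stress replicate 3 (adjusted p = 0.0342), in DESeq2's Wald test (0.0464), in limma-voom (0.0489) and in a fit of stress and no-stress tumours alone (0.0109). The glutathione reductase GSR had a log2 fold change of -0.23 (SE 0.10, adjusted p = 0.144).

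None of the 4 members of the thioredoxin system was called. Their log2 fold changes were 0.08 for thioredoxin TXN, -0.29 for its reductase TXNRD1, -0.35 for sulfiredoxin SRXN1, which repairs overoxidised peroxiredoxins, and -0.28 for the peroxiredoxin PRDX1. TXN averaged 782 ± 124 CPM in stress tumours, 786 ± 178 CPM in post-stress tumours and 742 ± 72.6 CPM in no-stress tumours (SD, n = 5 each), groups that overlapped throughout.

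None of the 3 iron and heme members was called. HMOX1, which breaks down heme and is strongly held down by BACH1, stood at 20.6, 22.3, 23.2, 25.1 and 23.5 CPM in stress tumours, 19.4, 15.8, 18.2, 23.2 and 19.2 CPM in post-stress tumours and 20.7, 25.2, 18.2, 24.2 and 22.0 CPM in no-stress tumours. Its groups overlapped (log2 fold change 0.06, SE 0.11, adjusted p = 0.797). FTL averaged 5587 ± 371 CPM in stress tumours, 7019 ± 1684 CPM in post-stress tumours and 6917 ± 849 CPM in no-stress tumours (SD, n = 5 each) (log2 fold change -0.31, SE 0.14, adjusted p = 0.171). Post-stress replicate 3 had the highest FTL level of the 15 tumours. FTH1 averaged 2513 ± 188 CPM in stress tumours, 2372 ± 294 CPM in post-stress tumours and 2077 ± 441 CPM in no-stress tumours (SD, n = 5 each) (log2 fold change 0.28, SE 0.13, adjusted p = 0.199), so the ferritin subunits had fold changes of opposite sign, neither of them called. Processed pseudogenes of FTH1 and FTL took at most 0.536% and 0.0605% of the counts of their families, and reads that the counting gave to the parent gene instead cannot be seen.

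Of the 6 carbonyl-reducing and oxidising members ALDH3A1 fell. ALDH3A1, which oxidises aromatic and lipid-derived aldehydes, stood at 2351, 2424, 2075, 3305 and 2114 CPM in stress tumours, 4594, 3439, 2996, 3093 and 2675 CPM in post-stress tumours and 3685, 3208, 4505, 3194 and 3065 CPM in no-stress tumours. Stress replicate 4 was inside the no-stress range and the other 4 stress tumours were below it, and post-stress replicate 1 was the highest tumour of all. ALDH3A1 fell to 0.695 of its no-stress level (log2 fold change -0.53, SE 0.16, adjusted p = 0.0440). Of the 9 calls it ended in the most fits, being lost without stress replicate 1, 2, 3 or 5, post-stress replicate 2 or 4, or no-stress replicate 1, 2, 3 or 4 (adjusted p 0.0522 to 0.130), with no filter on low counts (0.0983) and without no-stress replicates 1 and 5 (0.109).

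AKR1B10, which reduces aldehydes and retinal, averaged 3703 ± 614 CPM in stress tumours, 3843 ± 466 CPM in post-stress tumours and 4385 ± 849 CPM in no-stress tumours (SD, n = 5 each) and was not called (log2 fold change -0.24, SE 0.14, adjusted p = 0.300). The steroid and carbonyl reductases AKR1C1, AKR1C2 and AKR1C3 had log2 fold changes of -0.24, 0.05 and -0.18, and the carbonyl reductase CBR1 one of 0.02, none of them called. AKR1C1, AKR1C2 and AKR1C3 are similar in sequence, as AKR1B10 and AKR1B15 are, so the way reads were shared among them makes their separate values uncertain.

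Of the 3 members for oxygenation, hydrolysis and glucuronidation, EPHX1 and CYP4F11 fell. EPHX1 (chr1:225810092-225845563 in GRCh38, plus strand), the microsomal epoxide hydrolase that opens epoxides of drugs and smoke constituents, stood at 268, 350.5, 319, 325 and 289 CPM in stress tumours, 424, 408, 451, 471 and 398 CPM in post-stress tumours and 531, 424, 534, 600.2 and 438 CPM in no-stress tumours. Every stress tumour was below every post-stress and every no-stress tumour, while the post-stress and no-stress ranges overlapped. EPHX1 fell to 0.614 of its no-stress level, with the smallest adjusted p of the 34 genes (log2 fold change -0.70, SE 0.10, adjusted p = 0.00128). CYP4F11, a hydroxylase of long-chain fatty acids and vitamin K, stood at 95.2, 119, 102, 108 and 88.8 CPM in stress tumours, 115, 102, 121, 112 and 113 CPM in post-stress tumours and 143, 142, 171, 123 and 120.0 CPM in no-stress tumours. The highest stress tumour was just below the lowest no-stress tumour, and CYP4F11 fell to 0.735 of its no-stress level (log2 fold change -0.44, SE 0.10, adjusted p = 0.0102), with the reservation that CYP4F3 and CYP4F12 are close copies. UGDH, which makes the glucuronic acid donor, was not called (log2 fold change -0.24, SE 0.09, adjusted p = 0.0926) except in DESeq2's Wald test.

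The efflux pumps ABCC2 and ABCC3, which export glutathione and glucuronide conjugates, had log2 fold changes of -0.18 and -0.03, neither of them called.

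Of the 4 remaining targets OSGIN1 and PIR fell. OSGIN1, an oxidative stress-induced growth inhibitor, stood at 39.0, 45.6, 37.5, 49.3 and 36.4 CPM in stress tumours, 41.7, 40.0, 75.3, 69.8 and 47.5 CPM in post-stress tumours and 66.5, 83.9, 79.3, 70.1 and 51.4 CPM in no-stress tumours. All stress tumours were below the lowest no-stress tumour, and post-stress tumours split between replicates 3 and 4, inside the no-stress range, and the other 3, inside the stress range. OSGIN1 fell to 0.592 of its no-stress level, the lowest ratio among the 9 (log2 fold change -0.76, SE 0.18, adjusted p = 0.0171). Its call ended without stress replicate 1 (adjusted p = 0.0501) and with no filter on low counts (0.0592).

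PIR (pirin), an iron-binding nuclear protein, stood at 29.7, 37.5, 33.1, 36.8 and 33.2 CPM in stress tumours, 38.8, 46.0, 48.7, 41.3 and 37.4 CPM in post-stress tumours and 50.6, 35.1, 51.5, 59.0 and 37.6 CPM in no-stress tumours. No-stress replicate 2 was within the stress range and no-stress replicate 5 just above it, and 3 of the 5 stress tumours were below the lowest no-stress tumour. PIR fell to 0.728 of its no-stress level (log2 fold change -0.46, SE 0.13, adjusted p = 0.0301), a call that ended without stress replicate 1, 3 or 5 or no-stress replicate 1, 3 or 4 (adjusted p 0.0645 to 0.0850) and without no-stress replicates 1 and 5 (0.0576). TRIM16, a ubiquitin ligase that takes part in the NRF2 stress response, stood at 66.7, 65.5, 65.8, 68.2 and 70.1 CPM in stress tumours, 77.8, 67.1, 73.8, 79.8 and 59.4 CPM in post-stress tumours and 88.9, 71.6, 85.4, 81.4 and 74.2 CPM in no-stress tumours. Its stress tumours were all just below the lowest no-stress tumour (log2 fold change -0.26, SE 0.08, adjusted p = 0.0589), and it passed the threshold without post-stress replicate 5 or no-stress replicate 2 (adjusted p 0.0402 and 0.0451), with plain library sizes (0.0369), in DESeq2's Wald test (0.0455) and in a fit of stress and no-stress tumours alone (0.0448). Its near copy TRIM16L makes its values uncertain. The nuclear receptor NR0B1 had a log2 fold change of 0.07 and was not called.

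**Figure D4:**
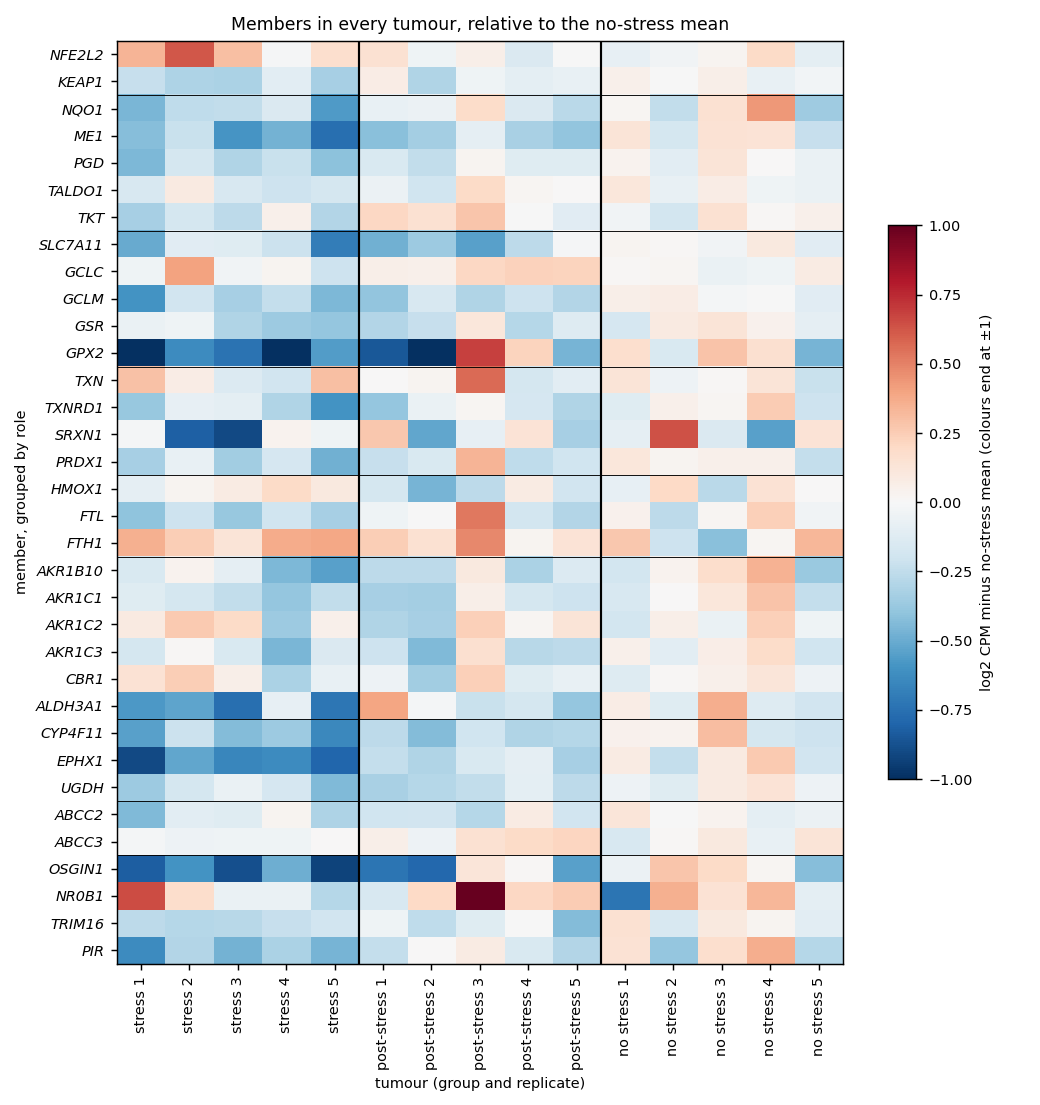
Log2 ratio of CPM to the no-stress mean for each of the 34 genes (grouped by role, down the page) in each of the 15 tumours (stress, post-stress and no-stress from left to right), with colours that end at ±1. Most stress columns lie below the no-stress mean, post-stress replicate 3 lies mostly above it and no-stress replicate 5 mostly below it.

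By tumour, the number of the 34 genes below their no-stress mean was 28, 23, 29, 28 and 28 in stress tumours, 25, 28, 12, 23 and 28 in post-stress tumours and 14, 18, 7, 9 and 28 in no-stress tumours. Post-stress replicate 3 and no-stress replicate 5 therefore stood apart from the rest of their groups in this programme. The spread between tumours of a group was like that of other genes of at least 10 CPM, with a median coefficient of variation over the members of 11.5% in stress tumours, 11.8% in post-stress tumours and 10.7% in no-stress tumours, against 10.7%, 11.7% and 9.87% for those genes.

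Post-stress tumours were next set against no-stress tumours, a comparison that shares its no-stress tumours with the one above. None of the 34 genes was called by edgeR's quasi-likelihood test, where 0.842% of all tested genes were, and 6 had an unadjusted p under 0.05 (17.6%), against 15.2% of all tested genes. DESeq2's Wald test called GCLM (adjusted p = 0.0349) and limma-voom none. The log2 fold changes ran from -0.36 for OSGIN1 to 0.32 for NR0B1, with a median of -0.14, and 26 of the 34 were below 0 (76.5%), against 51.2% of all tested genes. The adjusted p values ran from 0.114 to 0.988.

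GCLM was the member nearest to the threshold and the one whose post-stress tumours were all below the no-stress tumours, an arrangement seen in 1.89% of all tested genes. It averaged 160.1 ± 10.2 CPM in post-stress tumours and 193 ± 9.79 CPM in no-stress tumours (SD, n = 5 each; log2 fold change -0.27, SE 0.08, adjusted p = 0.114). CYP4F11 averaged 113 ± 6.70 CPM in post-stress tumours and 139.7 ± 20.6 CPM in no-stress tumours (log2 fold change -0.31, SE 0.10, adjusted p = 0.142), and ME1 73.7 ± 7.08 CPM in post-stress tumours and 91.9 ± 11.6 CPM in no-stress tumours (log2 fold change -0.32, SE 0.10, adjusted p = 0.155). SLC7A11 averaged 558 ± 84.9 CPM in post-stress tumours and 697 ± 37.8 CPM in no-stress tumours (log2 fold change -0.32, SE 0.12, adjusted p = 0.210), with post-stress replicate 5 inside the no-stress range. EPHX1 averaged 430.3 ± 30.2 CPM in post-stress tumours and 505 ± 73.5 CPM in no-stress tumours (log2 fold change -0.23, SE 0.10, adjusted p = 0.284). NFE2L2 had a log2 fold change near 0 (0.00), KEAP1 one of -0.09, NQO1 one of -0.09 and HMOX1 one of -0.20, none of them called.

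Post-stress replicate 3 was the highest of its group in several members. Its FTL level of 9899 CPM compares with 6851 CPM in the next post-stress tumour, its TXN level of 1096 CPM with 752 CPM and its PRDX1 level of 1138 CPM with 811 CPM. Without it the log2 fold changes against no-stress tumours were -0.14 for FTL, -0.07 for TXN, -0.21 for PRDX1 and -0.38 for ME1, against 0.02, 0.08, -0.09 and -0.32 with it, and none was called either way.

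Stress tumours were then set against post-stress tumours, which gives the difference between the restraint schedules itself. None of the 34 genes was called by edgeR's quasi-likelihood test, where 0.0389% of all tested genes were, and 11 had an unadjusted p under 0.05 (32.4%), against 11.1% of all tested genes. The median log2 fold change was -0.11, and 26 of the 34 were below 0 (76.5%), against 50.8% of all tested genes. EPHX1 was the member whose stress tumours were all below the post-stress tumours, an arrangement seen in 0.752% of all tested genes. EPHX1 averaged 310.2 ± 32.2 CPM in stress tumours and 430.3 ± 30.2 CPM in post-stress tumours (SD, n = 5 each, log2 fold change -0.47, SE 0.10, adjusted p = 0.0934). It passed the threshold in DESeq2's Wald test (adjusted p = 0.00208), with no filter on low counts (0.00824) and without stress replicate 4 (adjusted p = 0.0383), while limma-voom called no member. ALDH3A1 (log2 fold change -0.45, SE 0.16, adjusted p = 0.264), GPX2 (log2 fold change -0.69, SE 0.29, adjusted p = 0.392), OSGIN1 (log2 fold change -0.40, SE 0.18, adjusted p = 0.423) and NFE2L2 (log2 fold change 0.29, SE 0.10, adjusted p = 0.253) were not called. That 9 genes passed in stress tumours and none in post-stress tumours is therefore not shown as a difference between the schedules.

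Genes around the programme were read from the same fit, for stress against no-stress tumours. Of 18 genes that control NRF2 or compete with it, 17 were tested, 3 rose (17.6%, against 5.23% of all tested genes) and 1 fell (5.88%, near the 5.22% of all tested genes), and their median log2 fold change was 0.14. MAFF, a small MAF protein that pairs with NRF2 or with BACH1, stood at 50.6, 31.4, 32.1, 30.8 and 40.3 CPM in stress tumours, 50.6, 32.4, 26.2, 19.7 and 13.6 CPM in post-stress tumours and 10.8, 12.3, 11.4, 8.52 and 14.6 CPM in no-stress tumours. Every stress tumour was above every no-stress tumour, and MAFF rose to 3.21 times its no-stress level (log2 fold change 1.68, SE 0.29, adjusted p = 0.00498). MAFK, another small MAF protein, stood at 119, 67.7, 95.1, 88.2 and 100.5 CPM in stress tumours, 115, 93.6, 75.6, 59.7 and 44.5 CPM in post-stress tumours and 39.1, 50.6, 40.9, 42.3 and 58.7 CPM in no-stress tumours. Its stress tumours were likewise all above the no-stress tumours, and it rose to 2.03 times its no-stress level (log2 fold change 1.02, SE 0.22, adjusted p = 0.0132), a call that ended without no-stress replicates 1 and 5 (0.0515). BACH1, the heme-sensitive repressor that occupies antioxidant response elements in place of NRF2, stood at 143, 123, 127, 102 and 99.1 CPM in stress tumours, 129, 110.0, 93.9, 74.0 and 94.1 CPM in post-stress tumours and 60.3, 73.2, 61.7, 76.6 and 73.9 CPM in no-stress tumours. It rose to 1.72 times its no-stress level (log2 fold change 0.78, SE 0.13, adjusted p = 0.00354), again with no overlap between stress and no-stress tumours. PGAM5, a mitochondrial phosphatase that binds KEAP1, averaged 47.3 ± 3.85 CPM in stress tumours and 60.5 ± 4.92 CPM in no-stress tumours and fell to 0.782 of its no-stress level (log2 fold change -0.35, SE 0.08, adjusted p = 0.0105).

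**Figure D5:**
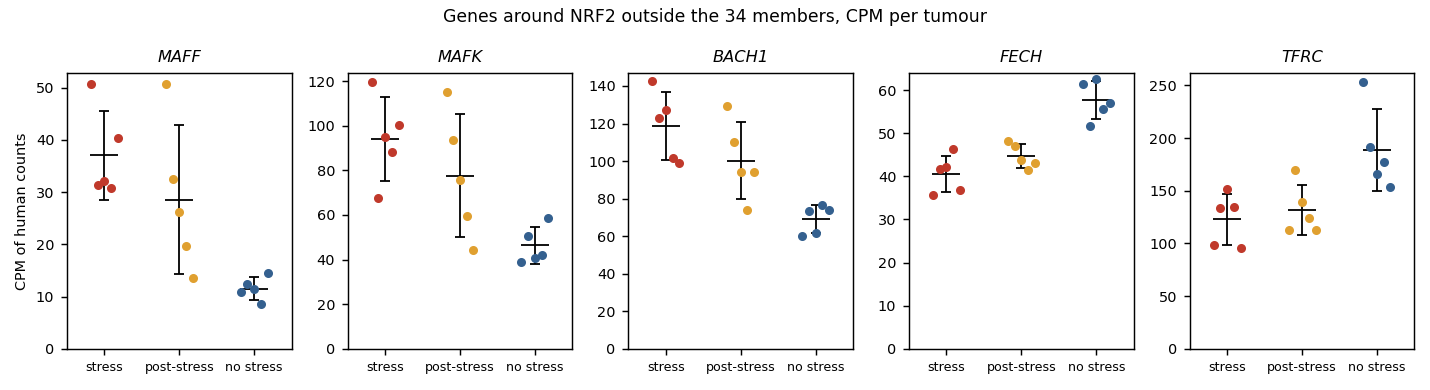
CPM in every tumour for MAFF, MAFK, BACH1, FECH and TFRC, with stress, post-stress and no-stress tumours from left to right; bars are the mean and SD of 5 tumours. The stress points of MAFF, MAFK and BACH1 lie above all no-stress points, while those of FECH and TFRC lie below all no-stress points.

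In post-stress tumours these regulators were not called, with log2 fold changes against no-stress tumours of 1.31 for MAFF (adjusted p = 0.0533), 0.75 for MAFK (adjusted p = 0.135) and 0.54 for BACH1 (adjusted p = 0.0664). Post-stress replicate 1 was as high as stress tumours in all 3 genes. MAFF passed the threshold without post-stress replicate 4 or 5, MAFK without post-stress replicate 5 and BACH1 without post-stress replicate 4, and DESeq2's Wald test called all 3. Stress and post-stress tumours were not called different in any of them.

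Of 36 further NRF2 target and detoxification genes 35 were tested, 4 fell (11.4%, against 5.22% of all tested genes) and none rose, with a median log2 fold change of -0.17. FECH, the ferrochelatase that completes heme, averaged 40.6 ± 4.28 CPM in stress tumours and 57.7 ± 4.39 CPM in no-stress tumours (SD, n = 5 each) and fell to 0.703 of its no-stress level (log2 fold change -0.51, SE 0.08, adjusted p = 0.00245). The other 3 were close relatives of members: TRIM16L (fold 0.728, adjusted p = 0.0128), AKR1B15 (fold 0.793, adjusted p = 0.0131) and CYP4F3 (fold 0.611, adjusted p = 0.0388). The call of CYP4F3 ended without stress replicate 1, 2, 3 or 5 or no-stress replicate 1, 3 or 5 (adjusted p 0.0549 to 0.0964), with no filter on low counts, with the mouse share as a covariate (0.0536) and without no-stress replicates 1 and 5 (0.192). FECH also fell in post-stress tumours, the only call there by edgeR's quasi-likelihood test among the lists, where 0.246% of all tested genes were lower (log2 fold change -0.37, SE 0.08, adjusted p = 0.0437). That call ended in 12 of 15 fits without 1 library (adjusted p 0.0506 to 0.140). It also ended with no filter on low counts, with only the groups compared and with the replicate number as a block. With the mouse share as a covariate (0.0920) and without no-stress replicates 1 and 5 (0.208) it was lost too. DESeq2's Wald test also gave lower post-stress levels of CYP4F3 (adjusted p = 0.00482, against 0.0807 in edgeR) and of TFRC, the transferrin receptor (adjusted p = 0.0417, against 0.131 in edgeR), and CYP4F3 passed in edgeR without stress replicate 1 or no-stress replicate 4.

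Of 27 genes for glutathione, cysteine and NADPH supply 25 were tested, 4 fell (16%, against 5.22% of all tested genes) and none rose, with a median of -0.15. IDH1, the cytosolic isocitrate dehydrogenase that makes NADPH, stood at 246, 330.0, 243, 280.1 and 227 CPM in stress tumours, 287, 295, 319, 311 and 285 CPM in post-stress tumours and 374, 306, 367, 363 and 286 CPM in no-stress tumours. Stress replicate 2 was within the no-stress range and the other 4 stress tumours were below it, and IDH1 fell to 0.782 of its no-stress level (log2 fold change -0.35, SE 0.10, adjusted p = 0.0365). Of the same list, GGCT (fold 0.700, adjusted p = 0.0315) and the glutathione-degrading enzyme CHAC2 (fold 0.662, adjusted p = 0.0321) fell too. The calls of IDH1, GGCT and CHAC2 each ended in 6 of the 15 fits without 1 library, and all 3 also ended without no-stress replicates 1 and 5.

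Of 16 genes for iron and heme handling 12 were tested, 3 fell (25%, against 5.22% of all tested genes) and none rose, with a median of -0.17. TFRC, the transferrin receptor, stood at 98.9, 133, 151, 134 and 96.1 CPM in stress tumours, 113, 169.7, 139, 124 and 113 CPM in post-stress tumours and 254, 192, 166, 177 and 154 CPM in no-stress tumours. All stress tumours were below all no-stress tumours, and TFRC fell to 0.651 of its no-stress level (log2 fold change -0.62, SE 0.16, adjusted p = 0.0223). The heme exporter FLVCR1 (fold 0.785, adjusted p = 0.0365) and the iron-sensing aconitase ACO1 (fold 0.704, adjusted p = 0.0474) fell with it, in calls that ended in 8 and 11 of the 15 fits without 1 library, against 3 for TFRC. With no filter on low counts and without no-stress replicates 1 and 5 the calls of TFRC and ACO1 ended (adjusted p 0.0694 and 0.239 without these replicates). ACO1 was also lost with the mouse share as a covariate (0.0585). FLVCR1 held in all of these alternatives. Of 25 peroxide, superoxide and thiol enzymes outside the members 20 were tested and none was called, with a median of -0.05.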

How the data were processed

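Total RNA of 15 A549 xenograft tumours was sequenced. The authors deposited 1 table of raw counts per gene, human and mouse rows together. Per the submitters' processing notes, Trimmomatic 0.39, HISAT2 2.2.1 and featureCounts 2.0.6 were used with hg38 and mm10; strandedness, annotation release and the handling of reads that match both genomes, not given in the sources used here, leave antisense and near-identical genes uncertain. Symbols matched 60463 of 60649 human identifiers, and exon lengths and positions came from GENCODE release 29.

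Human counts of all 15 tumours were fitted together in R 4.3.3 with edgeR 4.0.16 (TMM scaling, filterByExpr, robust quasi-likelihood fit, Benjamini-Hochberg adjustment over 15435 genes, threshold 0.05), after the fit was tested on simulated counts. The tested genes held 99.8% of human counts. CPM values were computed from the deposited counts. DESeq2 1.42.0 and limma 3.58.1 (voom) were alternatives, with other scalings and filters, fits of only the groups compared, the replicate number as a block, the mouse share as a covariate, and libraries left out. The labels give 5 replicates per group, each read here as the tumour of its own mouse. The p-values test differences between groups against the spread between these tumours. The members and lists were chosen with earlier results of these data known. Every tumour's value is given for members called in any comparison and for NFE2L2, KEAP1, NQO1, HMOX1 and SLC7A11; the other members are given by range and counts with the 4 most abundant per length, and outside the members up to 4 called genes per list with the smallest p are named. GPX2, TRIM16 and TXN were named in addition. Some genes of these lists are counted but not reported here by name.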

Additional observations from a re-analysis of the deposited data

Results flagged for a closer look

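In 9 of 102 groups of 5 tumours, counting each of the 34 genes in each group, the highest or lowest tumour stood apart from the others by Dixon's gap test at the 95% level, where chance gives about 1 in 20. Post-stress replicate 3 was the tumour in 5 of them, all as the highest: ME1 at 85.8 CPM (next tumour 72.9), TXN at 1096 CPM (752), PRDX1 at 1138 CPM (811), FTL at 9899 CPM (6851) and the nuclear receptor NR0B1 at 65.0 CPM (37.8). Post-stress replicate 4 was highest for the efflux pump ABCC2 at 996 CPM, with the next tumour at 826 CPM. In the stress group, replicate 2 was highest for TALDO1 at 568 CPM (next 478) and replicate 4 for ALDH3A1 at 3305 CPM (next 2424). In the no-stress group, replicate 5 was lowest for PRDX1 at 762 CPM (next 918). ME1 and ALDH3A1 are among the 9 genes that fell under stress, and the call of ALDH3A1 held without stress replicate 4.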

How the results depend on the processing

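Over part of the results with a gene named here, 1072 of the values from fits without 1 library kept their direction and their side of the threshold, 95 lost the call, 10 gained one and 23 changed sign. Over the other alternatives for the same results 737 kept both, 37 lost the call, 14 gained one and 12 changed sign. Some named results are outside both tallies. In stress against no-stress tumours CBR1 changed sign in 5 alternative fits and NR0B1 in 3, and the post-stress calls that CYP4F3 gained are not counted either.

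Human genes called in stress against no-stress tumours numbered 1613, against 661 to 1834 without 1 library, 546 without no-stress replicates 1 and 5 and 990 with the replicate number as a block. In post-stress against no-stress tumours they numbered 130, against 37 to 144 without 1 library, 32 without no-stress replicates 1 and 5, 504 in DESeq2's Wald test, 49 with only these groups fitted, 57 with the block and 38 with the mouse share as a covariate. In stress against post-stress tumours they numbered 6, against 0 to 189 without 1 library, 203 in DESeq2's Wald test, 36 with no filter, 1 with only these groups fitted and 0 with the block or the mouse share as a covariate. Members called were 9 in stress against no-stress tumours, against 4 to 10 without 1 library. They were 5 without no-stress replicates 1 and 5, and 6 with no filter and with the block. DESeq2's Wald test kept the 9 and added GPX2, UGDH and TRIM16 as lower and NFE2L2 as higher. Fitting only these groups added GPX2 and TRIM16, limma-voom added GPX2 and plain library sizes added TRIM16. Post-stress against no-stress tumours had 0 members called (1 in DESeq2's Wald test). Stress against post-stress tumours had 0 (1 in DESeq2's Wald test and with no filter, 0 to 1 without 1 library). The cause of these shifts was not tested.

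Tumours with the same replicate number in different groups correlated by -0.19 to 0.12 in their deviations from the group means. Of the 15, 1 correlated best with its own number. These values show no pairing by number, but weak correlations cannot exclude one. Among the members the block ended the calls of KEAP1, PGD and ALDH3A1.

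The members' share of counts was 2.52% in stress tumours, 2.88% in post-stress tumours and 2.96% in no-stress tumours when mouse counts entered the total, and 2.38%, 2.57% and 2.90% of human counts in these groups without FTL and FTH1. Both ways stress replicate 2 was above no-stress replicate 5, at 2.7188 against 2.4596% with mouse counts and 2.5285 against 2.5219% without FTL and FTH1.

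Signs changed for uncalled values near 0. In post-stress against no-stress tumours the log2 fold change of NFE2L2 was -0.0452 with plain library sizes, -0.0901 with the mouse share as a covariate and -0.0565 without no-stress replicates 1 and 5, and -0.0244 to 0.0636 without 1 library. That of FTL was -0.0338 with plain library sizes, -0.0005 in limma-voom and -0.0681 with the mouse share, and -0.135 to 0.101 without 1 library. Without 1 library it was -0.0668 to 0.152 for TXN, -0.472 to 0.0060 for GPX2, -0.201 to 0.0376 for ALDH3A1 and -0.168 to 0.0369 for NQO1. In stress against post-stress tumours TXN was at 0.0165 with plain library sizes, 0.0068 in limma-voom, 0.0058 with the block and 0.0399 with the mouse share, and -0.0712 to 0.143 without 1 library. SLC7A11 was at -0.0034 with no filter and -0.0478 to 0.0949 without 1 library, and AKR1B10 at 0.0478 with the mouse share and -0.127 to 0.0206 without 1 library. HMOX1 ran from -0.0033 to 0.112 in stress against no-stress tumours without 1 library. No scaling moved the median of all genes by as much as 0.1 on the log2 scale.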
